A study of Rattus norvegicus with 15 samples.

Results

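The genes examined were 43 genes of the excitatory synapse, encoding glutamate receptors and proteins of the postsynaptic density, in rat dorsal hippocampus. They were chosen by name, from a list of AMPA, NMDA, kainate and metabotropic receptor subunits and of scaffold, calcium-signalling and receptor-trafficking proteins, with no measured value in the rule. The choice was made with earlier results of these data known. All 43 were found among the 22314 genes of the count table, and all 43 were among the 14880 genes that passed the filter on low counts. They comprise 4 AMPA receptor subunits, 6 NMDA receptor subunits, 5 kainate receptor subunits, 6 metabotropic receptors, 4 membrane-associated guanylate kinases (MAGUKs), 9 Shank, Dlgap and Homer scaffolds, 3 calcium-signalling proteins and 6 AMPA receptor auxiliary and trafficking proteins.

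Bulk polyadenylated RNA was sequenced from the dorsal CA1 area of wild-type male Sprague-Dawley rats, 8 to 9 weeks old, whose dorsal CA1 had been injected with Accell siRNA, a chemically modified siRNA that enters cells without a transfection reagent. The naive group (5 libraries, replicates 1, 2, 9, 11 and 12) received scrambled control siRNA and no training. The scrambled trained group (5 libraries, replicates 5, 6, 10, 15 and 16) received the same scrambled siRNA and was trained 5 days later in contextual fear conditioning, which pairs a chamber with a foot shock. The Rnf20-labelled group (5 libraries, replicates 4, 8, 14, 18 and 20) received siRNA against Rnf20, an E3 ubiquitin ligase that attaches ubiquitin to histone H2B, and was trained in the same way. Every animal therefore carried an siRNA injection, and no uninjected group and no untrained group with Rnf20 siRNA was analysed here. The tissue was labelled as holding all brain cell types, and no source used here gave the time from training to dissection. The labels do not state that each library is a separate animal, so that the p-values reflect the spread among these libraries alone, which may be technical.

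Glutamate is the main excitatory transmitter of the brain. AMPA receptors carry most of the fast synaptic current, and NMDA receptors admit calcium when glutamate binding coincides with depolarisation, a step on which long-term potentiation at CA1 synapses and the learning of a context depend. Kainate receptors adjust release and excitability, and metabotropic receptors couple glutamate to G proteins. Beneath the synaptic membrane, MAGUK proteins hold the receptors in place, Dlgap proteins link MAGUKs to Shank proteins, and Homer proteins tie Shank to metabotropic receptors, while calmodulin and its kinase CaMKII respond to the calcium that enters.

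Total counts were 14249375 to 17046535 per naive library, 15342480 to 20644425 per scrambled trained library and 12537250 to 18458527 per Rnf20-labelled library. The 43 members took between 0.747% (scrambled trained replicate 10) and 1.33% (Rnf20-labelled replicate 14) of a library's counts. Rnf20 itself did not pass, between the libraries with and without its label, edgeR's quasi-likelihood test, which was fitted to all 15 libraries with Benjamini-Hochberg adjustment over the 14880 genes. Its level was 43.2 ± 5.39 CPM (counts scaled to a common library size; SD, n = 5) in scrambled trained and 42.0 ± 2.32 CPM (n = 5) in Rnf20-labelled libraries, a log2 fold change of -0.04 (95% interval -0.22 to 0.13, adjusted p = 0.945). Differences between these groups are therefore given for the siRNA label. On the first principal component, which held 35.7% of the variance of all genes, 4 libraries stood apart: scrambled trained replicates 10 (53.5) and 15 (41.02) and Rnf20-labelled replicates 18 (45.0) and 14 (-49.3). Of 10 marker genes listed for CA1 pyramidal neurons 9 were in the table, and none was at 0 in any library. Their mean log2 CPM, called the CA1 score here, was 5.85 to 6.48 in naive, 5.10 (replicate 10) to 6.88 (replicate 6) in scrambled trained and 5.66 to 6.36 in Rnf20-labelled libraries. Markers of striatal neurons were also detected, and their score was highest in scrambled trained replicate 10 (6.36) against 3.30 to 5.35 in the other libraries.

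Across the 15 libraries the synaptic transcripts varied widely from library to library. The highest library exceeded the lowest by a median of 2.06-fold over the 43 members, by over 2-fold for 25 of them and by over 4-fold for 4. The libraries at the extremes recurred from gene to gene. Scrambled trained replicate 10 was the lowest of the 15 libraries for 16 members, replicate 16 for 10 and replicate 15 for 9, and Rnf20-labelled replicate 18 for 5. Rnf20-labelled replicate 14 was the highest for 13 members and scrambled trained replicate 6 for 11. No naive library was the lowest for any member. The members' median deviation from their mean log2 CPM was -0.46 in scrambled trained replicate 10, -0.25 in Rnf20-labelled replicate 18, -0.22 and -0.21 in scrambled trained replicates 15 and 16, and 0.31 in Rnf20-labelled replicate 14, whereas the naive libraries lay between -0.05 and 0.13. CPM is a share of a library's counts. In bulk tissue fewer neurons, less RNA per neuron and more RNA from other cells or tissue cannot be told apart.

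**Figure D1:**
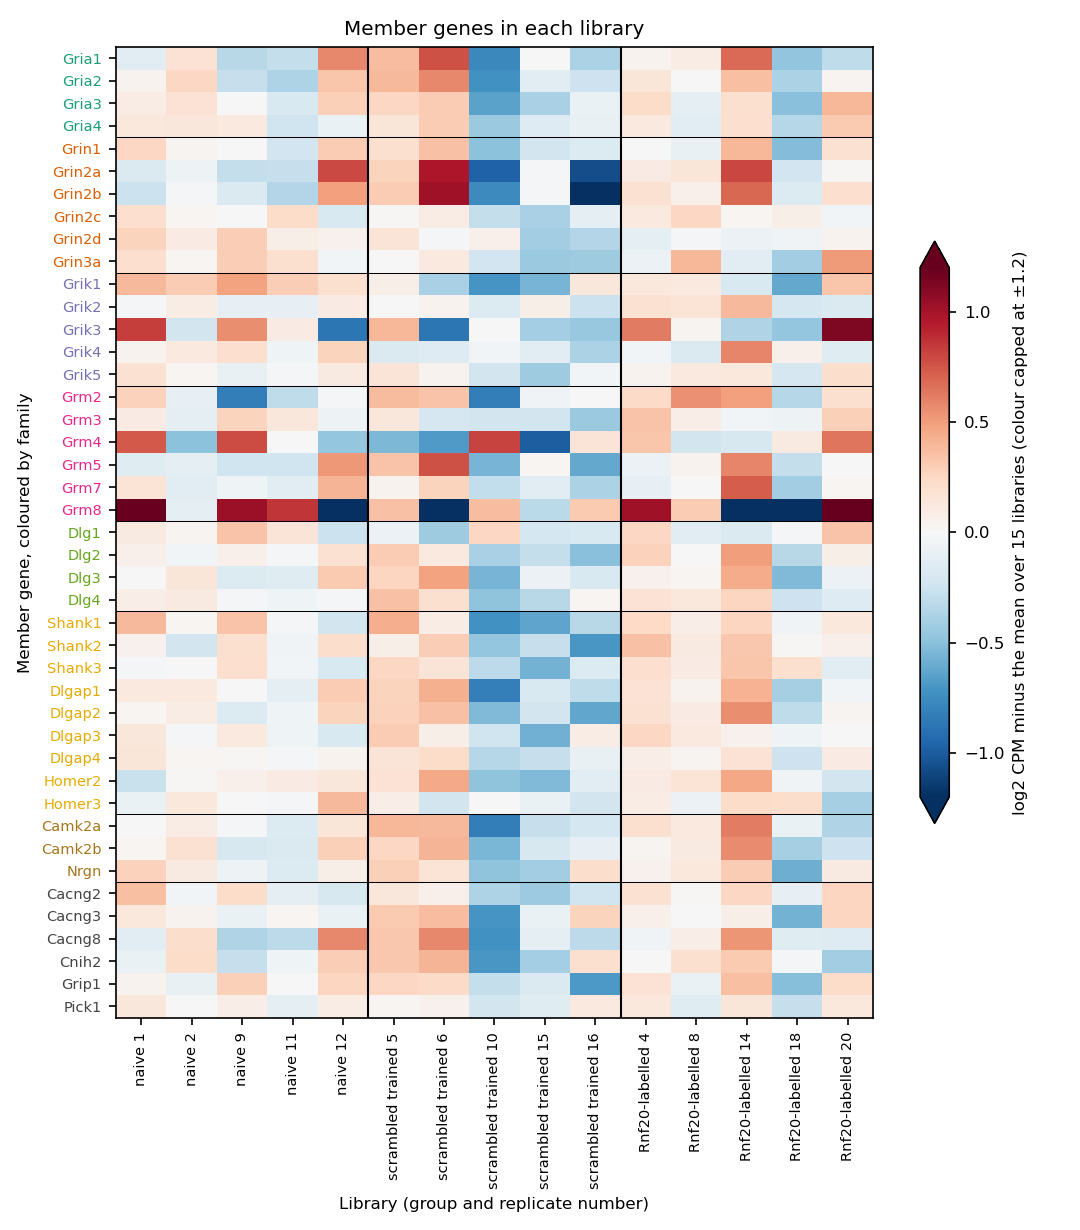
Each row is a member gene and each column 1 of the 15 libraries; colour gives log2 CPM minus the gene's mean over the 15 libraries, capped at 1.2. The columns of scrambled trained replicate 10 and Rnf20-labelled replicate 18 are mostly blue (median deviations -0.46 and -0.25), that of Rnf20-labelled replicate 14 is mostly red (0.31), and the rows of Grm8, Grik3 and Grm4 do not follow these columns.

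Fear conditioning was compared with the naive state within the scrambled siRNA. No member passed edgeR's quasi-likelihood test at an adjusted p under 0.05 (0 of 43; 0% of the 14880 genes were called), and the smallest adjusted p among them was 0.380. DESeq2 and limma also called 0 members, although DESeq2 called 58 of all genes. At an unadjusted p under 0.05 there were 4 members, Grik1, Grik4, Grin2d and Grm3, and in each the mean was lower in the trained libraries. Among all genes 9.97% passed that threshold, 3.35% with the lower and 6.62% with the higher mean in trained libraries. The log2 fold change was below 0 for 37 of 43 members, against 52.8% of all genes, and above 0 for 6, Cacng3, Gria1, Gria2, Grin2b, Grm2 and Grm5, against 47.2%. Its median was -0.12 over the members and -0.01 over all genes. For 31 of 43 members the 95% interval lay within 1.5-fold in either direction.

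The count below 0 depended on a few libraries. Without scrambled trained replicate 10, 26 members had a log2 fold change below 0 and the median was -0.02. With all 4 libraries that stood apart left out, 18 of 43 were below 0 and the median was 0.06. The summed level of 14 microglial markers was 874 to 1525 CPM in naive and 992 to 2154 CPM in scrambled trained libraries. That of 12 pan-neuronal markers was 7536 to 9125 and 5315 to 9162 CPM. None of either list was at 0, but the pan-neuronal marker Eno2 was at only 0.235 to 0.86 CPM and enters that score like the others. The summed level of reactive astrocyte markers, 9 of 10 in the table and none at 0 in all libraries, was 3035 to 4629 CPM in naive and 4138 to 7859 CPM in scrambled trained libraries, with mean scores of 4.48 and 5.53. Its highest sums over all libraries were those of scrambled trained replicates 10, 15 and 16 and Rnf20-labelled replicate 18. With the microglial score as a covariate 20 members were below 0, and with the pan-neuronal score 16. Both scores come from the same libraries as the members, and the 4 libraries were picked from all genes' values, members included. These counts are therefore no test of composition, and the part of cell composition in the members' values was not tested.

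The Rnf20 siRNA label was compared with the scrambled siRNA among trained libraries. Again 0 of 43 members were called by edgeR (0% of all genes), with a smallest adjusted p of 0.832, and DESeq2 and limma called 0 members. DESeq2 called 1 of all genes. At an unadjusted p under 0.05 there were 4 members, Cacng2, Grin2c, Grm3 and Shank2, each with the higher mean in Rnf20-labelled libraries, where 5.61% of all genes passed, 2.63% higher and 2.98% lower. Of the 43 members 39 had a log2 fold change above 0, against 50.7% of all genes, with a median of 0.15. This comparison shares the scrambled trained libraries with the one before, so the same low libraries enter both. Without scrambled trained replicate 10 there were 14 members below 0 instead of 4, without Rnf20-labelled replicate 14 there were 13, and without the 4 libraries that stood apart 23. The summed microglial markers were 773 to 1998 CPM in Rnf20-labelled libraries and the pan-neuronal markers 5882 to 10377 CPM. Summed reactive astrocyte markers were 2331 CPM in Rnf20-labelled replicate 14, the lowest of all libraries, to 6899 CPM in replicate 18, with a mean score of 4.54 against 5.53 in scrambled trained libraries. Intervals within 1.5-fold in either direction were found for 29 of 43 members.

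The Rnf20-labelled libraries were also set against the naive ones. No member was called (0 of 43; 0% of all genes), and none reached an unadjusted p under 0.05, where 2.3% of all genes did. The members divided into 25 above 0, against 50.6% of all genes, and 18 below 0, around a median of 0.02 (log2), and 34 intervals lay within 1.5-fold in either direction. A single F test of any difference among the 3 groups called 0 of all genes (0%) and passed 6.44% of them at an unadjusted p under 0.05. Of the 43 members 2, Grik1 and Grm3, reached that threshold, and the smallest adjusted p of the members was 0.743, that of Grik1.

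**Figure D2:**
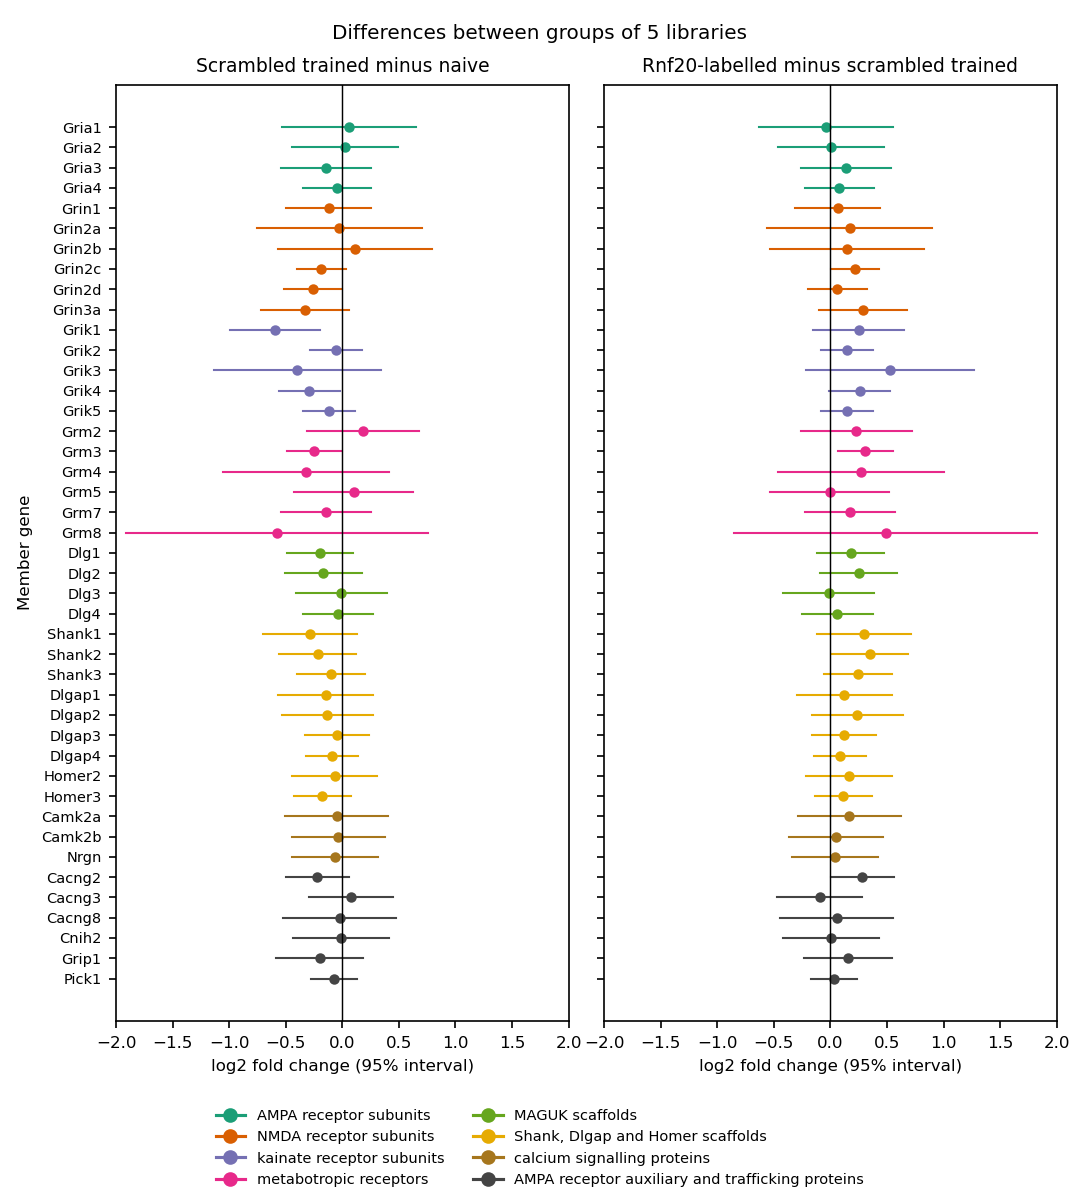
Points are log2 fold changes and lines their 95% intervals for the 43 members (edgeR, 5 libraries a group); the left panel is scrambled trained minus naive and the right panel Rnf20-labelled minus scrambled trained. Most points lie left of 0 on the left (37 of 43) and right of 0 on the right (39 of 43), and nearly all lines cross 0; Grm8, Grik3 and Grm4 have the widest.

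AMPA receptors are tetramers of GluA subunits encoded by Gria1 to Gria4. None of the 4 passed the test in either comparison, and their median log2 fold change was -0.01 with training and 0.04 with the siRNA label. Gria1 encodes a subunit that is inserted into synapses during potentiation. Its level in naive libraries 1, 2, 9, 11 and 12 was 287, 354, 249, 257 and 468 CPM, in scrambled trained libraries 5, 6, 10, 15 and 16 it was 407, 533, 184, 316 and 242 CPM, and in Rnf20-labelled libraries 4, 8, 14, 18 and 20 it was 323, 334, 503, 226 and 254 CPM. The groups overlapped throughout, with both the lowest and the highest library among the scrambled trained ones. The log2 fold change of Gria1 was 0.06 for training (SE 0.28, adjusted p = 0.961) and -0.04 for the siRNA label (SE 0.28, adjusted p = 0.984). Gria2 encodes the subunit that makes the channel nearly impermeable to calcium. In the same library order Gria2 stood at 571, 661, 459.8, 431 and 701 CPM in naive, 728, 831, 335, 505 and 467 CPM in scrambled trained and 613, 559, 714, 427 and 568 CPM in Rnf20-labelled libraries. Scrambled trained replicate 10 was again the lowest and replicate 6 the highest, and the fold changes of Gria2 were 0.02 (SE 0.22) and 0.01 (SE 0.22) on the log2 scale. Gria3 averaged 218 ± 26.6, 197 ± 53.4 and 217 ± 49.3 CPM (SD, n = 5 each) in the naive, scrambled trained and Rnf20-labelled groups, and Gria4 80.2 ± 8.87, 77.6 ± 15.3 and 81.9 ± 14.6 CPM.

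NMDA receptors combine the obligatory GluN1 subunit, encoded by Grin1, with GluN2 or GluN3 subunits that set their kinetics. None of the 6 genes passed the test, and the medians of their log2 fold changes were -0.15 with training and 0.16 with the siRNA label. Grin1 was 349, 302, 296, 251 and 363 CPM in naive, 336, 375, 209, 253 and 262 CPM in scrambled trained and 296, 277, 387, 205 and 333 CPM in Rnf20-labelled libraries, with log2 fold changes of -0.12 (SE 0.18, adjusted p = 0.849) and 0.06 (SE 0.18, adjusted p = 0.958). Its lowest library was Rnf20-labelled replicate 18 and its highest Rnf20-labelled replicate 14.

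Grin2a and Grin2b, the GluN2A and GluN2B subunits of forebrain NMDA receptors, were among the most variable members. Grin2a stood at 123, 133, 114, 115 and 240.4 CPM in naive, 167, 271, 70.8, 136 and 66.4 CPM in scrambled trained and 148, 154, 241, 118 and 139.7 CPM in Rnf20-labelled libraries. Thus 1 library of each group lay above its companions, naive replicate 12, scrambled trained replicate 6 and Rnf20-labelled replicate 14, and scrambled trained replicates 10 and 16 lay below all others. Grin2b followed with 39.6, 46.3, 41.7, 36.8 and 66.3 CPM, 58.4, 95.9, 27.8, 46.7 and 20.5 CPM and 53.6, 49.4, 76.0, 42.2 and 54.2 CPM in the 3 groups, so that its highest library exceeded its lowest by 4.68-fold. The training fold changes were -0.03 (SE 0.34, 95% interval -0.76 to 0.71) for Grin2a and 0.11 (SE 0.32, 95% interval -0.57 to 0.79) for Grin2b, on the log2 scale. The interval of Grin2a reached past 1.5-fold in both directions and that of Grin2b in the upward one, so that a change of that size was not detectable here.

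The ratio of the 2 subunits varied less than either gene, whose log2 CPM had an SD of 0.57 (Grin2a) and 0.55 (Grin2b) over the 15 libraries. This ratio shifts during development, when GluN2A joins and partly replaces GluN2B. The log2 ratio of Grin2a to Grin2b counts was 1.63, 1.52, 1.45, 1.64 and 1.86 in naive, 1.52, 1.501, 1.35, 1.55 and 1.69 in scrambled trained and 1.47, 1.64, 1.67, 1.48 and 1.37 in Rnf20-labelled libraries. Its means were 1.62 ± 0.15, 1.52 ± 0.12 and 1.52 ± 0.13 (SD, n = 5), and neither difference held in the two-sided exact permutation test over all divisions of 10 libraries into 5 and 5 (p = 0.294 with training and p = 1 with the siRNA label; adjusted over 6 such tests, 0.881 and 1). The smallest p that this test can give is 0.00794. Counts are not scaled by transcript length, so the ratio compares libraries and does not give the number of transcripts of one gene per transcript of the other. The log2 ratio of Gria1 to Gria2 counts averaged -0.82 ± 0.16, -0.79 ± 0.13 and -0.85 ± 0.24 in the same groups (exact permutation p = 0.762 and 0.675, adjusted 0.914 for both).

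Grin2c, Grin2d and Grin3a encode subunits that are less typical of pyramidal neurons, and Grin2d is known from interneurons. Grin2d was 9.73, 8.61, 9.88, 8.47 and 8.34 CPM in naive, 8.95, 7.97, 8.39, 5.98 and 6.26 CPM in scrambled trained and 7.48, 7.93, 7.67, 7.81 and 8.28 CPM in Rnf20-labelled libraries, from 92 to 163 counts each. All 5 Rnf20-labelled libraries lay below all 5 naive libraries, by a narrow margin, which was so for 0.249% of all genes in that direction. The mean of Grin2d was 9.00 ± 0.737 CPM in naive, 7.51 ± 1.32 CPM in scrambled trained and 7.83 ± 0.304 CPM in Rnf20-labelled libraries, and its log2 fold changes from naive were -0.26 (SE 0.12, adjusted p = 0.488) and -0.20 (SE 0.12, adjusted p = 1.00). Grin2c, which is also expressed in astrocytes, stood at 137, 121, 118, 139 and 105 CPM, 119.8, 126, 97.8, 91.0 and 109.7 CPM and 129, 142, 121, 125 and 117 CPM in the 3 groups. On the log2 scale Grin2c differed by -0.19 (SE 0.10, adjusted p = 0.562) with training and 0.22 (SE 0.10, adjusted p = 0.832) with the siRNA label, where 4 of 5 Rnf20-labelled libraries were within the range of the naive ones. Grin3a, whose subunit lowers calcium entry, was 6.29, 5.56, 6.73, 6.28 and 5.34 CPM, 5.46, 5.95, 4.64, 3.97 and 4.02 CPM and 5.21, 7.23, 5.00, 4.06 and 7.86 CPM, with fold changes of -0.33 (SE 0.18, adjusted p = 0.571) and 0.29 (SE 0.18, adjusted p = 0.833) on the log2 scale.

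**Figure D3:**
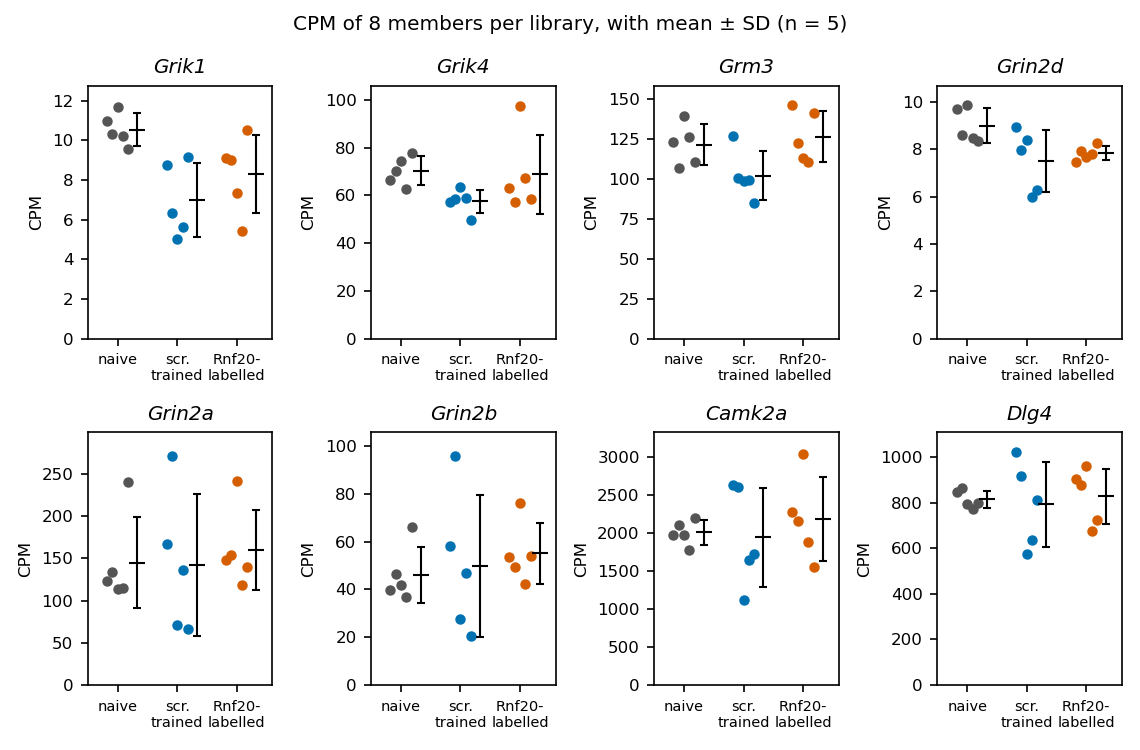
CPM of 8 members in each library (points) with the group mean and SD (n = 5), on linear axes that start at 0, for naive, scrambled trained and Rnf20-labelled libraries. The scrambled trained points of Grik1 all lie below the naive points, and those of Grin2a, Grin2b and Camk2a spread on both sides of the naive points.

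Kainate receptor genes had the largest median difference with training of the 8 groups of members, -0.29 on the log2 scale with 5 of 5 below 0; with the siRNA label the median was 0.25 with 5 of 5 above 0. None of the 5 passed the test in either comparison. Grik1, which encodes the GluK1 subunit known from hippocampal interneurons, was 11.0, 10.3, 11.7, 10.2 and 9.55 CPM in naive, 8.77, 6.34, 5.05, 5.62 and 9.16 CPM in scrambled trained and 9.14, 9.04, 7.33, 5.41 and 10.6 CPM in Rnf20-labelled libraries, from 86 to 193 counts each. All 5 scrambled trained libraries lay below all 5 naive libraries, the only member of which this was so (1 of 43; 0.659% of all genes in that direction). The mean of Grik1 was 10.6 ± 0.817 CPM in naive and 6.99 ± 1.87 CPM in scrambled trained libraries (SD, n = 5), a log2 fold change of -0.60 (SE 0.19, 95% interval -0.997 to -0.20, adjusted p = 0.380). In Rnf20-labelled libraries it was 8.29 ± 1.97 CPM, which overlapped both other groups, with a log2 fold change of 0.25 (SE 0.19, adjusted p = 0.843) from the scrambled trained libraries and -0.35 (SE 0.19, adjusted p = 1.00) from the naive ones. The training difference of Grik1 ranged from -0.90, without the 3 libraries of the lowest choroid plexus markers, to -0.37, without the 4 libraries that stood apart, over the alternatives tried, with adjusted p from 0.117 to 0.837. The summed choroid plexus markers, 9 of 10 in the table and none at 0 in all libraries, were 1443 to 4486 CPM in naive, 12.4 to 4318 CPM in scrambled trained and 87.8 to 1877 CPM in Rnf20-labelled libraries. Summed interneuron markers, 9 of 10 in the table and none at 0 in all libraries, were 613 to 889 CPM in naive, 584 to 810 CPM in scrambled trained and 473 to 929 CPM in Rnf20-labelled libraries, and their part in the Grik1 and Grin2d values was not tested.

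The stretch around the Grik1 start site is shown because Grik1 was the one member whose scrambled trained libraries separated from the naive ones. It is the RefSeq window of 250 bases before and 50 bases after the annotated start, at chr11:41056454-41056753 on the minus strand of the GRCr8 assembly, and holds 58.7% G and C. The counts were made on Rnor_6.0, so these coordinates do not apply to the count table. Capitals mark GC boxes (GGGCGG on either strand), of which this window has 0.
Grik1: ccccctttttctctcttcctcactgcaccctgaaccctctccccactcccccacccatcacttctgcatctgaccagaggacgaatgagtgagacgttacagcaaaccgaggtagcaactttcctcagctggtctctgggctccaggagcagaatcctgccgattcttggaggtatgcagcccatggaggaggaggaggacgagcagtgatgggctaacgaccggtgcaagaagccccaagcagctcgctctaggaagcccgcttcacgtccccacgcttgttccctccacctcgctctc

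Grik4 encodes GluK4, a high-affinity subunit that needs GluK1 to GluK3 to form a channel and is known from CA3. It stood at 66.5, 70.4, 74.5, 62.6 and 77.9 CPM in naive, 57.3, 58.3, 63.4, 58.8 and 49.6 CPM in scrambled trained and 63.1, 57.4, 97.5, 67.5 and 58.6 CPM in Rnf20-labelled libraries. Of the 5 scrambled trained libraries 4 lay below all naive ones and replicate 10 did not. Grik4 had a log2 fold change of -0.29 (SE 0.13, adjusted p = 0.459) with training and 0.26 (SE 0.13, adjusted p = 0.832) with the siRNA label, or 0.10 with the siRNA label once Rnf20-labelled replicate 14 was left out. The summed markers of CA3 pyramidal neurons were 404 to 575 CPM in naive, 332 to 455 CPM in scrambled trained and 391 to 676 CPM in Rnf20-labelled libraries. Of 10 markers 9 were in the table, none at 0 in all libraries, and their part in the Grik4 values was not tested. Grik3 varied 4.02-fold, from 9.87 CPM in scrambled trained replicate 6 to 39.7 CPM in Rnf20-labelled replicate 20, with group means of 20.8 ± 8.89, 15.8 ± 5.44 and 22.7 ± 11.2 CPM. Grik2 averaged 44.4 ± 3.05, 42.8 ± 4.21 and 47.3 ± 8.25 CPM and Grik5 162 ± 12.1, 149 ± 23.1 and 165 ± 17.0 CPM in the naive, scrambled trained and Rnf20-labelled groups.

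Among the 6 metabotropic receptors none passed the test, and the median log2 fold change was -0.20 with training and 0.25 with the siRNA label. Grm3 encodes mGluR3, an inhibitory G-protein-coupled receptor found on astrocytes as well as neurons. It was 123, 107, 139, 126 and 111 CPM in naive, 127, 100.4, 98.9, 99.3 and 84.8 CPM in scrambled trained and 146, 122, 113, 110.2 and 141 CPM in Rnf20-labelled libraries. Of the 5 scrambled trained libraries 4 lay below all naive and all Rnf20-labelled ones, and replicate 5 lay among them. Grm3 had the smallest p of the members for the siRNA label, with a log2 fold change of 0.31 (SE 0.11, 95% interval 0.07 to 0.55, adjusted p = 0.832), and with training it was -0.25 (SE 0.11, adjusted p = 0.481). From naive to Rnf20-labelled libraries the difference was 0.06 (SE 0.11). Summed astrocyte markers, 10 of 10 in the table and none at 0 in all libraries, were 5928 to 7067 CPM in naive, 4684 to 7303 CPM in scrambled trained and 5294 to 6974 CPM in Rnf20-labelled libraries. Their part in the Grm3 values was not tested.

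Grm5 encodes mGluR5, the receptor that couples to calcium release and binds Homer proteins. It was 77.9, 80.1, 72.9, 73.0 and 124 CPM in naive, 109, 147, 58.7, 87.5 and 56.2 CPM in scrambled trained and 82.2, 88.6, 129, 70.8 and 85.8 CPM in Rnf20-labelled libraries, high in the same 3 libraries in which Grin2a was high. Its log2 fold changes were 0.10 (SE 0.25) and -0.01 (SE 0.25). Grm8, a presynaptic inhibitory receptor, spanned the widest range of any member, from 0.861 CPM (14 counts, Rnf20-labelled replicate 18) to 15.9 CPM (224 counts, Rnf20-labelled replicate 20). Grm8 was 11.6, 4.68, 10.4, 9.22 and 1.64 CPM in naive, 6.50, 1.83, 6.57, 4.02 and 6.32 CPM in scrambled trained and 10.4, 6.26, 2.00, 0.861 and 15.9 CPM in Rnf20-labelled libraries. In naive replicate 12, scrambled trained replicate 6 and Rnf20-labelled replicate 14, the libraries of highest Grin2a, Grm8 was at 1.64, 1.83 and 2.00 CPM, and Grik3 was at 9.91, 9.87 and 14.1 CPM. That opposition was noticed in those libraries and was not tested, and it did not hold throughout. Grm8 was lowest in Rnf20-labelled replicate 18, where Grin2a was not high. In scrambled trained replicates 10 and 16, the libraries of lowest Grin2a, Grm8 was at 6.57 and 6.32 CPM. Grm2, Grm4 and Grm7, also inhibitory, averaged 24.9 ± 6.63, 12.1 ± 5.21 and 25.2 ± 4.28 CPM in naive, 28.2 ± 8.24, 9.71 ± 5.38 and 22.8 ± 4.21 CPM in scrambled trained, and 33.02 ± 7.38, 11.7 ± 3.06 and 25.8 ± 8.28 CPM in Rnf20-labelled libraries.

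None of the 4 MAGUK genes passed the test, with medians of -0.10 and 0.12 on the log2 scale for training and the siRNA label. Dlg4 encodes PSD-95, the scaffold that anchors AMPA and NMDA receptors. It was 847, 862, 792, 772 and 796 CPM in naive, 1022, 917, 573, 636 and 812 CPM in scrambled trained and 902, 878, 958, 675 and 722 CPM in Rnf20-labelled libraries. The naive libraries lay close together, and both trained groups spread to either side of them. The SD of Dlg4 was 38.5 CPM in naive and 188 CPM in scrambled trained libraries, and the log2 fold changes were -0.04 (SE 0.15, adjusted p = 0.948) and 0.06 (SE 0.15, adjusted p = 0.950). Dlg2, which encodes PSD-93, stood at 149.8, 140.4, 149.8, 141 and 163 CPM, 177, 156, 109.6, 118 and 101 CPM and 174, 145, 204, 114 and 151 CPM in the 3 groups, a log2 fold change of 0.25 (SE 0.16, adjusted p = 0.833) with the siRNA label. Dlg3 (SAP102) averaged 193 ± 27.6, 191 ± 52.7 and 189 ± 44.3 CPM and Dlg1 (SAP97) 102 ± 15.1, 89.1 ± 16.0 and 101 ± 16.4 CPM. Dlg1 is expressed outside neurons too, and its libraries were ordered otherwise: scrambled trained replicate 6, the highest for 11 members, was the lowest for Dlg1 at 71.3 CPM, and replicate 10, the lowest for 16 members, stood at 114 CPM.

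The start sites of Dlg1 and Dlg4 are shown side by side because Pearson's r with the CA1 score differed in sign between these paralogs. The negative r of Dlg1 did not pass (-0.57, adjusted permutation p = 0.0909). It was -0.33 without the 2 libraries farthest from the median score. Both are RefSeq windows on GRCr8 of 250 bases before and 50 bases after the annotated start, chr11:82607748-82608047 (minus strand) for Dlg1 and chr10:55239534-55239833 (plus strand) for Dlg4. Capitals mark GC boxes, of which Dlg1 has 1 and Dlg4 has 0.
Dlg1: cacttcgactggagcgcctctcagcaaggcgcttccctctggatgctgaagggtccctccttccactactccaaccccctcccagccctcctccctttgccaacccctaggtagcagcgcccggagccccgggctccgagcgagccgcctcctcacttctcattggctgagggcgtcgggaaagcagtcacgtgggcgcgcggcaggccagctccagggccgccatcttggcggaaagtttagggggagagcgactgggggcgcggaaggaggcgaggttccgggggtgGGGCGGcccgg
Dlg4: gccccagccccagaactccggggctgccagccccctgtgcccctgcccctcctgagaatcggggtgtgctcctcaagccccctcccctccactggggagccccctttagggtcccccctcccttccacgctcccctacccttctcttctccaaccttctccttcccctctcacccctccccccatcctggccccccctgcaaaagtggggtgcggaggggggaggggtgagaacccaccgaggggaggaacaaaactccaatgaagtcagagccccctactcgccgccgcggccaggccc

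Both windows are rich in G and C (69% and 68.7%), and the Dlg1 window also holds the E-box CACGTG. Among the 30 members with a window in the RefSeq table, GGGCGG or its reverse complement occurred in 11 (36.7%), against 33.1% of the 33469 windows of all genes. TGACG, the core of the cAMP response element, on either strand, occurred in 4 (13.3% against 21.2%), in Camk2a, Grik2, Grin1 and Pick1. CACGTG occurred in 1 (3.33% against 6.42%) and TATAAA in 1, Cacng2 (3.33% against 14.2%). No motif searched contains another. These matches describe letters in a window, with no measurement of a bound factor.

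Of the 9 Shank, Dlgap and Homer scaffolds none passed the test. All 9 had a log2 fold change below 0 with training (median -0.13) and above 0 with the siRNA label (median 0.16). Over all 43 members 37 were below 0 with training and 39 above 0 with the siRNA label. For 8 of the 9 scaffolds the lowest value was in scrambled trained replicate 10, 15 or 16. These libraries were the lowest for 16, 9 and 10 of the 43 members. Shank2, a master scaffold that binds Dlgap and Homer, was 24.2, 20.0, 26.7, 22.7 and 27.1 CPM in naive, 24.6, 28.8, 16.9, 19.2 and 14.4 CPM in scrambled trained and 29.9, 25.2, 29.2, 23.5 and 24.4 CPM in Rnf20-labelled libraries. The scrambled trained libraries divided into a pair near the others and 3 below all Rnf20-labelled ones, and the log2 fold change of Shank2 was 0.35 (SE 0.16, 95% interval 0.01 to 0.69, adjusted p = 0.832) with the siRNA label and -0.22 (SE 0.16) with training. Shank3, mutated in a form of autism, was 463, 471, 541, 459 and 413 CPM, 557, 523, 377, 316 and 418 CPM and 538, 502, 589, 534 and 425 CPM, with a fold change of 0.24 (SE 0.14, adjusted p = 0.832) for the siRNA label. Without the 4 libraries that stood apart the Shank3 value was -0.04. Shank1 averaged 772 ± 137, 634 ± 224 and 780.5 ± 65.0 CPM in the naive, scrambled trained and Rnf20-labelled groups. The Dlgap genes, which encode the link between MAGUKs and Shank, had training fold changes between -0.15 (Dlgap1) and -0.04 (Dlgap3) on the log2 scale. Homer3 stood at 52.9, 61.1, 55.9, 55.3 and 73.1 CPM, 59.0, 48.0, 55.7, 52.9 and 48.0 CPM and 59.5, 53.3, 65.2, 64.8 and 42.3 CPM, with a training difference of -0.18 (SE 0.12, adjusted p = 0.641), and Homer2 averaged 19.5 ± 2.04, 18.6 ± 5.60 and 20.9 ± 3.79 CPM.

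The calcium-signalling members are Camk2a and Camk2b, the main subunits of CaMKII, and Nrgn, which encodes neurogranin, a postsynaptic protein that binds calmodulin at low calcium. None of the 3 passed the test, and their medians were -0.05 and 0.05 on the log2 scale. Camk2a was 1976, 2108, 1967, 1774 and 2201 CPM in naive, 2625, 2599.6, 1121, 1638 and 1716 CPM in scrambled trained and 2274, 2157, 3035, 1875 and 1549.8 CPM in Rnf20-labelled libraries. The SD was 162 CPM in naive, 655 CPM in scrambled trained and 555 CPM in Rnf20-labelled libraries, and the groups overlapped. Camk2a had log2 fold changes of -0.05 (SE 0.21, adjusted p = 0.958) and 0.17 (SE 0.21, adjusted p = 0.911). Nrgn was 1246, 1111, 987, 917 and 1080.1 CPM, 1256, 1153, 736, 768 and 1190.2 CPM and 1064, 1125, 1270.0, 684 and 1111 CPM in the 3 groups, with fold changes of -0.07 (SE 0.18) and 0.04 (SE 0.18). The low values of Nrgn fell in scrambled trained replicates 10 and 15 and Rnf20-labelled replicate 18, 3 of the 4 libraries that stood apart. The log2 ratio of Camk2a to Camk2b counts was 0.71 ± 0.12, 0.66 ± 0.16 and 0.81 ± 0.16 (SD, n = 5) in the naive, scrambled trained and Rnf20-labelled groups (exact permutation p = 0.563 and 0.151, adjusted 0.914 and 0.881).

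The 6 auxiliary and trafficking members did not pass the test either, with medians of -0.05 and 0.05 on the log2 scale. Cacng2 encodes stargazin, a transmembrane protein that carries AMPA receptors to the synapse. It was 66.8, 51.1, 60.8, 48.5 and 45.8 CPM in naive, 57.3, 54.2, 40.2, 38.5 and 44.1 CPM in scrambled trained and 59.1, 52.7, 62.1, 48.6 and 62.3 CPM in Rnf20-labelled libraries, with log2 fold changes of -0.22 (SE 0.13, adjusted p = 0.599) and 0.28 (SE 0.13, adjusted p = 0.832). The scrambled trained values overlapped those of both other groups. Cacng8, a related subunit abundant in hippocampus, ranged 2.48-fold and Cnih2, an AMPA receptor chaperone, 2.15-fold, and both were lowest in scrambled trained replicate 10 and highest in replicate 6. Cacng3 had a training difference of 0.08 (SE 0.18) and Grip1, a scaffold of AMPA receptors, of -0.20 (SE 0.18) on the log2 scale. Pick1, which takes part in AMPA receptor endocytosis, had the narrowest range of all members, 1.34-fold between its lowest and highest library, and averaged 25.9 ± 1.66, 24.6 ± 2.37 and 25.2 ± 3.27 CPM.

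The member levels were then set against the CA1 score over the 15 libraries, a relation chosen after the data had been seen. Members of several families, the AMPA receptor subunits among them, were high in libraries with much CA1 marker RNA. Pearson's r with the score was above 0.5 for 26 of 43 members (60.5%), against 20.2% of all genes. By permutation, with Benjamini-Hochberg adjustment over all 14880 genes, 20 members (46.5%) had a positive r at an adjusted p under 0.05, against 10.8% of all genes, and 0 had a negative one, against 6.8%. By Spearman's rho 14 members (32.6%) passed, against 9.05% of all genes. The score and the members come from the same libraries and share their depth and scaling. Leaving out the 2 libraries farthest from the median score, scrambled trained replicates 10 (which also had the highest striatal score) and 6, kept r above 0.5 for 17 of the 20, and r of deviations from group means was above 0.5 for all 20. The 20 had been chosen by r in these same libraries, so these checks are not independent support. The mean CA1 score also differed little between groups (6.20 in naive, 6.15 in scrambled trained and 6.11 in Rnf20-labelled libraries). Over all 43 members r was above 0.5 for 19 without the 2 farthest libraries and for 27 within groups. The pan-neuronal score was lowest in scrambled trained replicates 10 (7.61) and 15 (7.86) and Rnf20-labelled replicate 18 (7.67). It was highest in Rnf20-labelled replicate 14 (8.52), whereas the CA1 score was highest in scrambled trained replicate 6. The members' r with the pan-neuronal score was not computed, so the relation is not shown to be particular to CA1.

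By Pearson's r all 4 AMPA receptor subunits passed, as did all 3 calcium-signalling proteins. By Spearman's rho Gria4 (adjusted permutation p = 0.0553) and Camk2a (adjusted permutation p = 0.0575) did not. Gria2 had the highest r of the members at 0.91 (rho 0.89, adjusted permutation p = 0.0014 and 0.00513), with 0.83 without the farthest libraries and 0.92 within groups. Dlg3 (0.89), Dlgap1 (0.88), Camk2b (0.86), Cacng3 (0.86) and Cnih2 (0.85) came next. Grin2a had an r of 0.69 (rho 0.70, adjusted permutation p = 0.0372 and 0.0518) that was 0.40 without the farthest libraries and 0.72 within groups. Gria4 (0.49) and Homer2 (0.43) also lay below 0.5 without those libraries. Grin2b at 0.61 (rho 0.65) did not pass (adjusted permutation p = 0.0765 and 0.0721). None of the 5 kainate receptor genes passed, and Grik1 had an r of 0.40, Grik3 of -0.21 and Grik4 of -0.02. The values for Grm3 (r = 0.03, rho -0.04), Grin2d (r = 0.02) and Homer3 (r = -0.02) were near 0.

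The MAGUK genes divided. Dlg4 had an r of 0.83 (rho 0.76, adjusted permutation p = 0.00436 and 0.0282, 0.75 without the farthest libraries and 0.85 within groups). Dlg1 had an r of -0.57 (rho -0.60, adjusted permutation p = 0.0909 and 0.099) that was -0.33 without the farthest libraries and -0.63 within groups. Only Dlg1 and Grm4 (r = -0.56) of the 43 members lay below -0.5 (4.65%), where 18.1% of all genes did.

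**Figure D4:**
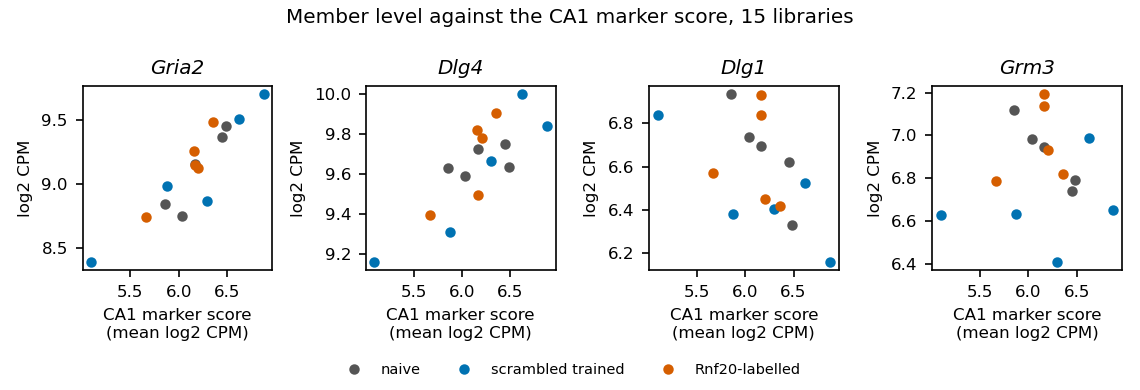
Each point is a library, with the CA1 score (mean log2 CPM of 9 CA1 markers) on the horizontal and the log2 CPM of a member on the vertical axis, coloured by group. Gria2 and Dlg4 climb with the score (r = 0.91 and 0.83), Dlg1 declines (r = -0.57, which did not pass) and Grm3 shows no slope (r = 0.03). The leftmost and rightmost points are scrambled trained replicates 10 and 6.

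Other genes of the pathway came from lists that hold no member. Of the 78 tested, 0 were called in any comparison by edgeR (0% of all genes). At an unadjusted p under 0.05 there were 4 with training, against 9.97% of all genes, 2 with the siRNA label, against 5.61%, and 2 for Rnf20-labelled against naive, against 2.3%. The training fold change was below 0 for 63 of the 78, against 52.8% of all genes, and that of the siRNA label above 0 for 58, against 50.7%. Of 21 further AMPA receptor auxiliary genes 18 had a training fold change below 0, with a median of -0.09. The smallest p among these was that of Nptxr, which encodes a receptor for neuronal pentraxins, at 1222 ± 215 CPM in naive and 894 ± 126 CPM in scrambled trained libraries (log2 fold change -0.45, SE 0.15, adjusted p = 0.387). Of 7 other glutamate receptor and kainate auxiliary genes 6 were below 0 (median -0.14). Neto1, an auxiliary subunit of kainate receptors, stood at 114 ± 14.3 and 87.1 ± 14.9 CPM (log2 fold change -0.38, SE 0.15, adjusted p = 0.430), and Grin3b at 4.61 ± 1.16 and 5.98 ± 0.678 CPM (0.37, SE 0.16, adjusted p = 0.459). Of 29 further scaffolds and adaptors 22 were below 0 with training (median -0.07) and 25 above 0 with the siRNA label (median 0.15). Shisal1, which encodes a Shisa-like membrane protein, had the smallest p of this list, at 94.3 ± 9.92 and 76.4 ± 10.2 CPM (log2 fold change -0.30, SE 0.10, adjusted p = 0.380). Of 21 kinase, phosphatase and calmodulin genes 17 were below 0 with training (median -0.10). Camk2g, a further CaMKII subunit, had a log2 fold change of -0.32 (SE 0.17, adjusted p = 0.540). Ppp1ca, a catalytic subunit of protein phosphatase 1, was 230.3 ± 3.62 CPM in naive and 247 ± 7.01 CPM in scrambled trained libraries, with all 5 trained libraries above all 5 naive ones (1.1% of all genes in that direction) and a log2 fold change of 0.10 (SE 0.06, adjusted p = 0.595).

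**Figure D5:**
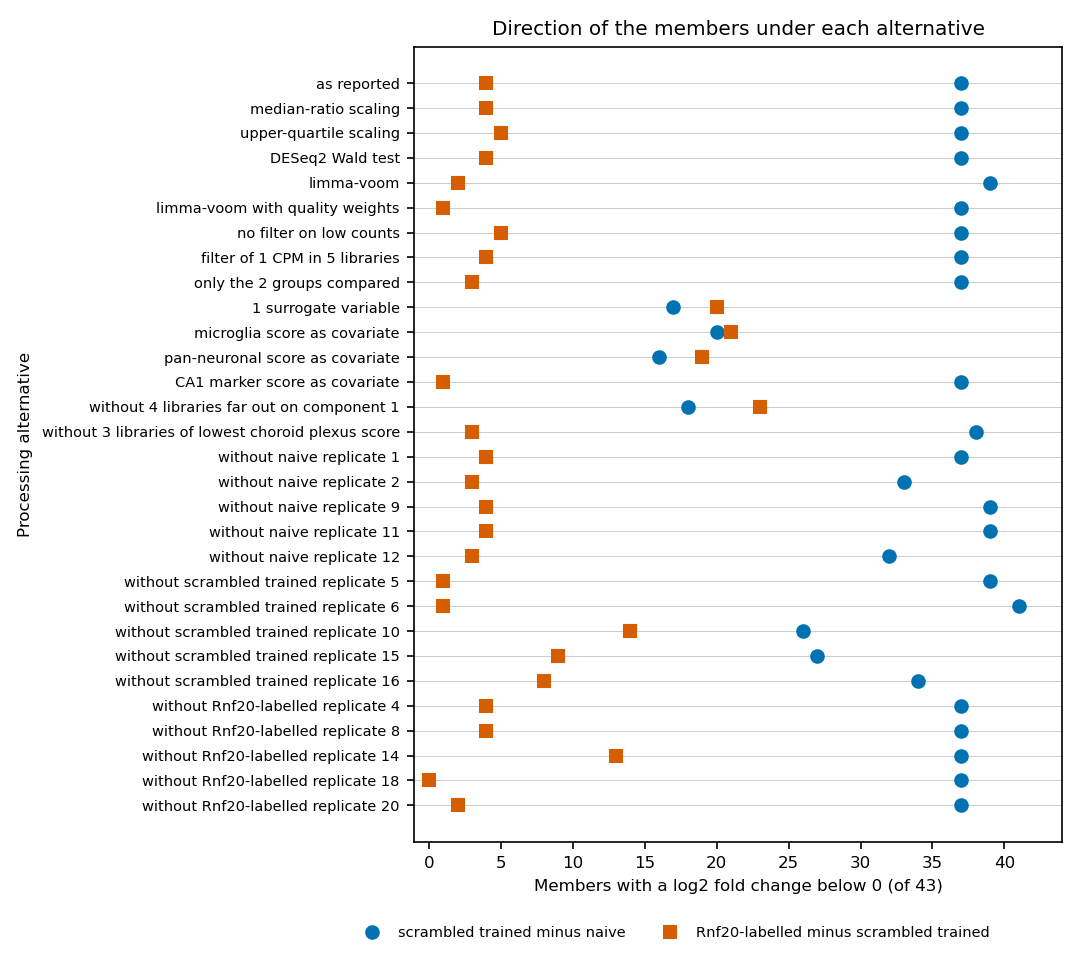
The horizontal axis counts the members (of 43) with a log2 fold change below 0, for scrambled trained minus naive (circles) and Rnf20-labelled minus scrambled trained (squares), in the fit reported and under each alternative named on the vertical axis. The counts of 37 and 4 move towards the middle once 1 surrogate variable (17 and 20), the microglia score (20 and 21) or the pan-neuronal score (16 and 19) is a covariate, and when the 4 libraries that stood apart are left out (18 and 23).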

How the data were processed

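Polyadenylated RNA of 15 dorsal CA1 samples was sequenced from stranded libraries enriched by 14 PCR cycles, per the labels' protocols. The deposited table holds raw counts per gene. The submitters' processing notes name Trim Galore, FastQC, featureCounts 2.0.1, DESeq2 and the Rnor_6.0 build; the sources used here give no aligner, no annotation and no strand option for counting, so reads of overlapping or antisense genes may be counted together. A second deposited table, of normalised values, was not used.

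Genes were filtered with edgeR's filterByExpr, which left 14880 of 22314 (399 had no count) and 99.9% of the counts. After TMM scaling, edgeR 4.0.16 (R 4.3.3) fitted 1 robust quasi-likelihood model to all 15 libraries in 3 groups with no covariate (12 residual degrees of freedom). A change means an adjusted p under 0.05 (Benjamini-Hochberg over all genes tested). CPM uses TMM-scaled totals, log2 CPM a prior count of 2. Count ratios used log2 with 0.5 added to each count. The relation to the CA1 score, added after the data had been seen, used 100000 permutations. A marker score is the mean log2 CPM of its genes. Alternatives were DESeq2 1.42.0, limma 3.58.1 voom with and without quality weights, 1 surrogate variable (sva 3.50.0), other scalings and filters, the compared groups alone, marker scores as covariates and left-out libraries.

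The 43 members, marker lists and pathway lists were chosen with earlier results of these data known. The named genes are the 8 members of smallest p in the training and in the siRNA label comparison and Gria1, Gria2, Grin1, Grin2a, Grin2b, Camk2a, Dlg4 and Nrgn. Their value in every library is given, but not each fold change, SE and adjusted p. From each pathway list the 1 or 2 genes of smallest training p are given with fold change, SE and adjusted p. The genes singled out elsewhere (Grm5, Grm8, Grik3, Dlg1, Pick1) were chosen after their values were seen. Promoter windows come from RefSeq on GRCr8, which matched 30 of 43 members by symbol. Transcript lengths of the build were not used here, so levels are compared between libraries and not between genes. Intervals cover the spread between libraries.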

Additional observations from a re-analysis of the deposited data

Results flagged for a closer look

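In 4 of 129 sets of values (43 members in 3 groups of 5 libraries) 1 library lay so far from the other 4 that its gap to the nearest exceeded 0.71 of the whole range, Dixon's 95% critical value for 5 samples. Chance alone flags about 1 set in 20. Grin2a stood at 240.4 CPM in naive replicate 12, against 114 to 133 CPM in the other naive libraries. Grin2a stood at 241 CPM in Rnf20-labelled replicate 14, against 118 to 154 CPM in the others of that group. Grik4 was at 97.5 CPM in Rnf20-labelled replicate 14, against 57.4 to 67.5 CPM. Grm5 was at 124 CPM in naive replicate 12, against 72.9 to 80.1 CPM. All 4 values are high ones and they fall in 2 libraries.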

How the results depend on the processing

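Over the alternatives for scaling, filtering, test, covariates and libraries, 0 members were called in any of the 3 comparisons, as in the fit reported. For the named genes, 892 of 986 fold changes under alternatives kept their direction and their side of the threshold, 94 turned direction and 0 gained or lost a call. Grik1, Grik4, Grm3, Grin2c, Grin2d, Grin3a, Cacng2, Homer3, Shank2 and Dlg2 kept theirs in each. All of these were named for a small p in these same libraries, which the alternatives reuse, so a kept direction is not independent support. The depth, at least 14 counts per member and library and 100 or more for 38 members, limits mainly Grm8. Over all genes DESeq2 called 58 with training, 1 with the siRNA label and 1 for Rnf20-labelled against naive, and a fit with 1 surrogate variable called 2 with training; leaving out libraries 1 at a time gave 0 to 1 for Rnf20-labelled against naive and 0 to 1 for any difference among the groups, the 1 in each case without naive replicate 9. The cause was not tested.

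Members below 0 numbered 37 with training and 4 with the siRNA label. They numbered 17 and 20 after adjustment for 1 surrogate variable, 20 and 21 for the microglia score and 16 and 19 for the pan-neuronal score, and 18 and 23 without the 4 libraries far out on component 1. For the siRNA label there were 2 in limma-voom, 1 with quality weights and 1 with the CA1 score as covariate. Leaving out libraries 1 at a time gave 26 to 41 with training and 0 to 14 with the siRNA label, the 0 without Rnf20-labelled replicate 18.

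Log2 fold changes that turned direction lay between -0.12 (Grin1, training) and 0.24 (Shank3, siRNA label) in the fit reported. In limma-voom they were -0.0228 for Gria2 and -0.0676 for Grin2b with training, and 0.0103 for Gria1 with the siRNA label, and with quality weights -0.0183 for Grin2b with training, and 0.00419 for Gria1 with the siRNA label. With 1 surrogate variable they were 0.11 for Grin1, 0.25 for Grin2a, 0.14 for Camk2a, 0.11 for Dlg4 and 0.15 for Nrgn with training, and -0.19 for Gria2, -0.15 for Grin1, -0.0619 for Grin2a, -0.0675 for Grin2b, -0.0698 for Dlg4 and -0.15 for Nrgn with the siRNA label. With the microglia score as covariate they were 0.0448 for Grin1, 0.0974 for Grin2a, 0.0891 for Camk2a, 0.0776 for Dlg4 and 0.0967 for Nrgn with training, and -0.17 for Gria2, -0.15 for Grin1, -0.0171 for Grin2a, -0.0405 for Grin2b, -0.0106 for Camk2a, -0.083 for Dlg4 and -0.17 for Nrgn with the siRNA label. With the pan-neuronal score they were 0.13 for Grin1, 0.26 for Grin2a, 0.14 for Camk2a, 0.11 for Dlg4 and 0.17 for Nrgn with training, and -0.14 for Gria2, -0.12 for Grin1, -0.00741 for Grin2a, -0.0165 for Grin2b, -0.0311 for Dlg4 and -0.12 for Nrgn with the siRNA label. With the CA1 score, added after the data had been seen, the value was 0.0476 for Gria1 with the siRNA label. Without the 4 libraries far out on component 1 they were 0.0625 for Grin1, 0.22 for Grin2a, 0.21 for Camk2a, 0.18 for Dlg4 and 0.18 for Nrgn with training, and -0.0356 for Shank3, -0.22 for Gria2, -0.11 for Grin1, -0.19 for Grin2a, -0.15 for Grin2b, -0.22 for Camk2a, -0.14 for Dlg4 and -0.13 for Nrgn with the siRNA label, the log2 ratio difference of Grin2a to Grin2b was -0.0804 with the siRNA label, and that of Camk2a to Camk2b was 0.022 with training. Without the 3 libraries lowest in choroid plexus markers they were -0.0197 for Gria2 and 0.14 for Grin2a with training, and 0.00943 for Gria1 and -0.0375 for Grin2b with the siRNA label. Leaving out libraries 1 at a time gave ranges of -0.16 to 0.23 for Gria1, -0.14 to 0.17 for Gria2, -0.39 to 0.23 for Grin2a, -0.26 to 0.31 for Grin2b, -0.18 to 0.099 for Camk2a, -0.15 to 0.0605 for Dlg4 and -0.15 to 0.0362 for Nrgn with training, and -0.24 to 0.19 for Gria1, -0.13 to 0.18 for Gria2, -0.0463 to 0.18 for Grin1, -0.0266 to 0.17 for Dlg4, -0.0499 to 0.16 for Nrgn, -0.0251 to 0.54 for Grin2a and -0.0537 to 0.52 for Grin2b with the siRNA label. The same gave -0.0158 to 0.086 for the Gria1 to Gria2 ratio with training, -0.14 to 0.0222 for it with the siRNA label, and -0.0403 to 0.0455 for the Grin2a to Grin2b ratio with the siRNA label.

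No paired analysis was possible because no replicate number occurs in more than 1 group.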
